A study of Mus musculus with 6 samples.

Results

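Mouse hearts labelled as knockout for Cenpf, which itself encodes a kinetochore protein, were compared with wild-type hearts. The genes described here build the kinetochore, run the spindle checkpoint and carry cells through mitosis. They were chosen by name from a list of 54 symbols. A gene was counted where the array's annotation gives a probe exactly 1 symbol equal to a listed one, and the probe with the highest mean over the 6 arrays stood for it. By this rule 52 of the 54 were measured, out of 19938 genes with such a probe (21789 probes). Ccnb1 had no such probe. Casc5 is annotated under its current symbol Knl1 and is given separately. The rule used no difference between the groups.

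Total RNA came from hearts of 12-month-old mice without treatment, 3 labelled as Cenpf knockout and 3 as wild-type, with 1 Affymetrix array per heart. The labels call the 3 hearts of a group biological replicates. Neither strain nor sex is stated, nor which part of Cenpf was deleted, nor in which cells. Values are log2 RMA values, so a difference of 1 is a doubling of the signal.

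The kinetochore is the protein assembly that joins each chromosome to the microtubules of the spindle. Its inner layer sits on centromeric chromatin marked by the histone variant CENP-A, its outer layer binds microtubules, and the spindle checkpoint delays chromosome separation until every kinetochore is attached. Cyclins A and B with the kinase CDK1 drive entry into mitosis. Most of these genes are transcribed mainly in dividing cells, late in the cell cycle. Cardiomyocytes of the adult heart rarely divide, while its endothelial cells, fibroblasts and leukocytes can.

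Cenpf, the targeted gene, read 6.35, 6.10 and 6.68 in the knockout hearts, against 8.75, 8.54 and 8.04 in the wild-type hearts. The groups did not overlap. It was lower by a fitted -2.07, standard error 0.21 (limma, adjusted p = 0.0286, exact two-sided permutation p = 0.1, the smallest that 3 against 3 allows). Its knockout mean of 6.37 lay next to the background level. The call was kept without wild-type replicate 3 (adjusted p = 0.00508) and lost without any other single heart (adjusted p 0.0689 to 0.198) and over all probes of the table (adjusted p = 0.281).

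The level of silent genes was taken from 1210 probes of olfactory and vomeronasal receptors, genes taken as not expressed in heart. The 95th percentile of their mean values, 6.35, is called the background level. All 10 markers of ventricular cardiomyocytes lay above it in all 6 hearts, and 8 of 10 germ cell markers lay below it in all 6. The other 2 germ cell markers, Prm1 and Prm2, lay above it in all 6. Their means were 6.84 and 7.17 in the knockout hearts and 6.87 and 7.10 in the wild-type hearts. A value a little above the level therefore does not by itself show that a gene is expressed. Of the 52 genes 31 had a mean above it over the 6 hearts (59.6%), against 71.2% of all 21789 probes. In all 6 hearts 26 genes lay above it, in some hearts 11, and in no heart 15. The probes that lay above it everywhere include Cenpa, Bub3, Cenpb, Mad2l1 and Ncapd2, which had the highest means, and also Mad1l1, Smc4, Zw10, Cenpq, Aurkb, Cdk1 and Ccnb2. The 15 that lay below it everywhere were Cenph, Cenpi, Cenpk, Cenpl, Cenpp, Spc25, Cenpe, Bub1, Ttk, Zwilch, Birc5, Cdc25c, Prc1, Sgo1 and Ncapg. A probe can respond to its gene below this level, but the size of a change there has no scale, so no fold is given for those genes. With the 99th percentile of the silent probes as the level (7.12), 14 genes had a mean above it, and with their median (4.76) all 52 had.

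**Figure D1:**
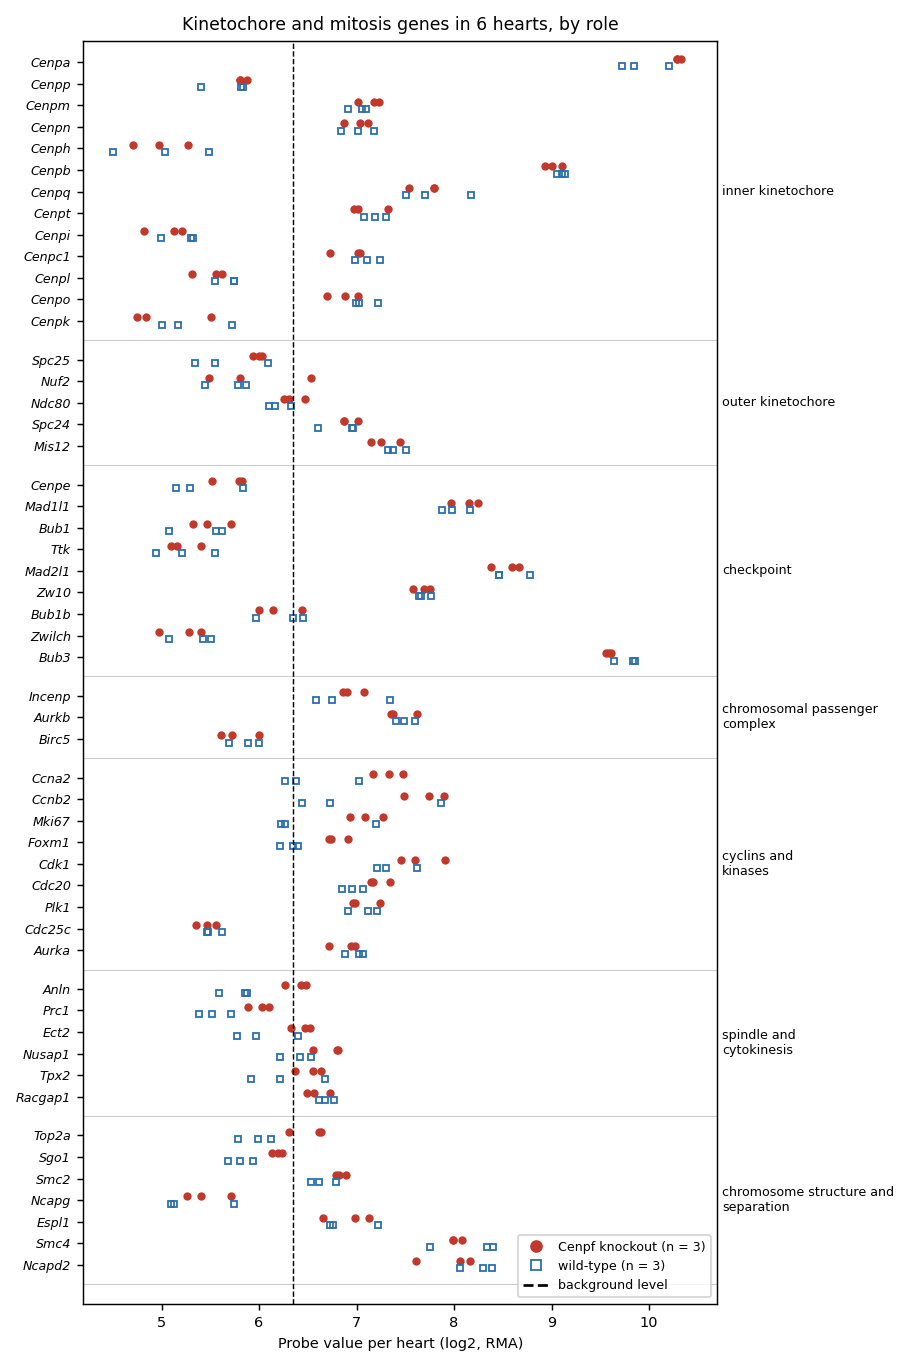
Value of each of the 52 genes in each heart (x axis, log2 RMA value), in blocks by role. Filled circles are the 3 knockout hearts, open squares the 3 wild-type hearts, and the dashed line is the background level of 6.35. In Ccna2, Foxm1, Anln, Top2a and Cenpa all circles lie to the right of all squares, while most inner kinetochore and checkpoint genes are mixed.

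None of the 52 genes passed an adjusted p under 0.05 over all 21789 probes (limma, 0 of 52), where 0.0275% of all probes did. The smallest adjusted p was 0.252, for Anln. At an unadjusted p under 0.05 there were 10 of 52 genes (19.2%), all 10 higher in the knockout hearts, against 9.9% of all probes. Of all probes 4.66% were higher and 5.24% lower at that p. The count of genes was 16 of 52 without wild-type replicate 3 and 5 of 31 among genes with a mean above the background level. The share of all probes at that p is not given for those fits, so 9.9% is no yardstick for them. The groups did not overlap for 11 genes, against 14.8% of all probes. Of these, 10 were higher in the knockout hearts (19.2%, against 7.33% of all probes) and 1, Bub3, was lower (1.92%, against 7.47%).

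Across the whole list the hearts differed little in the middle of the distribution. The median difference, knockout minus wild-type, was 0.038 on the log2 scale, against -0.008 for all probes. Of the 52 genes 27 were higher and 25 lower (51.9% higher, against 47.9% of all probes). The differences ran between -0.31 for Ncapd2 and 0.76 for Ccna2. As assigned here, the roles had different medians. The median difference was 0.282 over 9 cyclins, kinases and related genes, called regulators here although they include the marker Mki67. It was 0.362 over 6 genes of the spindle and cytokinesis and 0.137 over 7 genes of chromosome structure. It was 0.15 over 5 outer kinetochore genes, -0.015 over 9 checkpoint genes, -0.049 over 3 genes of the chromosomal passenger complex and -0.091 over 13 inner kinetochore genes. Roles were assigned from general knowledge of these genes with their values known, and the differences between roles were not tested. Among the regulators, Foxm1 (0.47), Mki67 (0.53), Cdc20 (0.27) and Cdc25c (-0.06) encode neither a cyclin nor a kinase. The kinase genes Aurkb (-0.05), Bub1 (0.08) and Ttk (-0.01) were placed under other roles. A different assignment could change these medians.

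**Figure D2:**
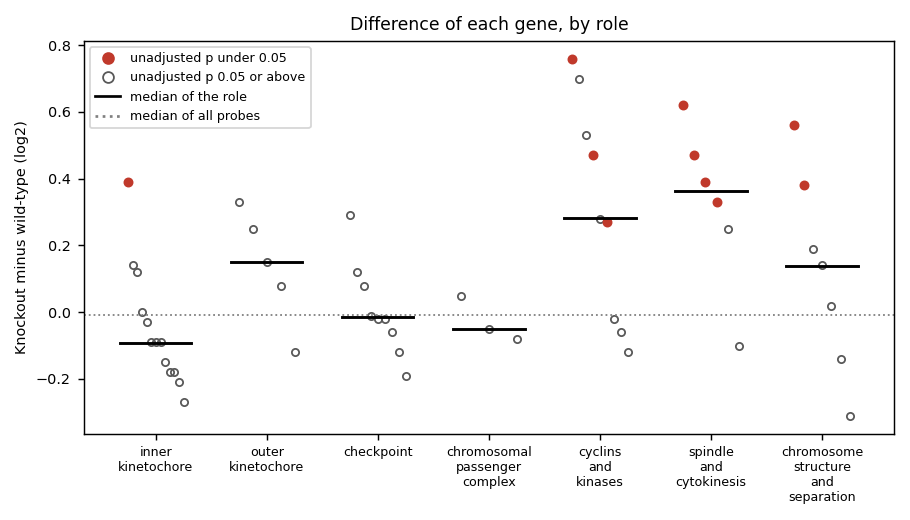
Difference of each gene between the group means (y axis, knockout minus wild-type, log2), by role. Each point is 1 gene, filled where the unadjusted p is under 0.05, bars are the medians of the roles and the dotted line is the median of all probes, -0.008. The 10 filled points all lie above 0, 7 of them among the regulators and the spindle and cytokinesis genes.

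Of the 9 regulators, which include Mki67, 6 were higher in the knockout hearts (47.9% of all probes were). At an unadjusted p under 0.05 there were 3 (limma, against 9.9% of all probes). None of the 9 passed the adjusted threshold. Ccna2, cyclin A2, which acts in DNA replication and at mitotic entry, read 7.48, 7.33 and 7.17 in the knockout hearts, against 6.38, 6.27 and 7.03 in the wild-type hearts. The groups did not overlap, although wild-type replicate 3 stood close to the knockout hearts. The measured difference was 0.76, standard error 0.20 (limma, unadjusted p = 0.00427, adjusted p = 0.368). Wild-type replicate 2 lay below the background level, so no fold is given. Ccnb2, cyclin B2, a partner of CDK1, read 7.90, 7.49 and 7.74 in the knockout hearts, against 6.44, 6.73 and 7.87 in the wild-type hearts. Wild-type replicate 3 lay within the knockout range here, and the other 2 wild-type hearts lay below it. The difference was 0.70 with a 95% interval of -0.05 to 1.45 (adjusted p = 0.527).

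Mki67, whose protein Ki-67 marks cycling cells, showed the same pair of low wild-type hearts. It read 7.09, 7.27 and 6.93 in the knockout hearts, against 6.27, 6.23 and 7.20 in the wild-type hearts, so that 2 wild-type hearts lay below the background level and the third within the knockout range. The difference was 0.53 with an interval of -0.04 to 1.09 (adjusted p = 0.527). Foxm1, a transcription factor that activates late cell cycle genes, read 6.72, 6.91 and 6.74 in the knockout hearts, against 6.21, 6.40 and 6.35 in the wild-type hearts. These groups did not overlap, and wild-type replicate 3 stood with the other wild-type hearts. Of the 3 wild-type hearts 1 lay above the background level. The measured difference was 0.47 with a standard error of 0.10 (unadjusted p = 0.00171, adjusted p = 0.357).

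Cdc20, an activator of the anaphase-promoting complex, read 7.17, 7.15 and 7.34 in the knockout hearts, against 6.95, 7.07 and 6.85 in the wild-type hearts. The groups did not overlap, with a difference of 0.27 (interval 0.02 to 0.51, adjusted p = 0.481). Cdk1, the kinase of mitotic entry, read 7.91, 7.60 and 7.46 in the knockout hearts, against 7.30, 7.21 and 7.62 in the wild-type hearts. Its groups overlapped through wild-type replicate 3, and the difference was 0.28 (interval -0.07 to 0.63, adjusted p = 0.570). The mitotic kinases Plk1 and Aurka differed by -0.02 (interval -0.31 to 0.26) and -0.12 (interval -0.37 to 0.14). Cdc25c, a CDK1-activating phosphatase, lay below the background level in all 6 hearts.

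Of the 6 genes of the spindle and cytokinesis 5 were higher in the knockout hearts (47.9% of all probes were). At an unadjusted p under 0.05 there were 4 (limma, against 9.9% of all probes), and 0 passed the adjusted threshold. Anln, anillin, a scaffold of the contractile ring, read 6.43, 6.48 and 6.27 in the knockout hearts, against 5.86, 5.59 and 5.88 in the wild-type hearts. It had the smallest p of the list (unadjusted p = 0.000682, adjusted p = 0.252) and a measured difference of 0.62 with a standard error of 0.12. All 3 wild-type hearts lay below the background level, so the difference is given as at least 0.05, or at least 1.03-fold, against that level. Nusap1, a microtubule-binding spindle protein, read 6.80, 6.55 and 6.81 in the knockout hearts, against 6.22, 6.42 and 6.53 in the wild-type hearts. These groups were separated by a narrow gap, with a measured difference of 0.33 (interval 0.05 to 0.61, adjusted p = 0.464). Wild-type replicate 1 lay below the background level.

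Ect2, which activates the GTPase RhoA at the cleavage site, read 6.33, 6.47 and 6.52 in the knockout hearts, against 5.77, 5.97 and 6.40 in the wild-type hearts (adjusted p = 0.493). Only wild-type replicate 3 reached into the knockout range. Prc1, which bundles microtubules of the central spindle, read 5.89, 6.03 and 6.10 in the knockout hearts, against 5.38, 5.52 and 5.71 in the wild-type hearts (adjusted p = 0.368). Its groups did not overlap, and all 6 values lay below the background level. Tpx2, an activator of Aurora A, differed by 0.25 (interval -0.17 to 0.67), and Racgap1, a partner of Ect2, by -0.10 (interval -0.34 to 0.14).

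Of 7 genes of chromosome structure and separation, 5 were higher (47.9% of all probes were). At an unadjusted p under 0.05 there were 2 (limma, against 9.9% of all probes), and 0 passed the adjusted threshold. Top2a, the topoisomerase that untangles replicated chromosomes, read 6.64, 6.61 and 6.31 in the knockout hearts, against 5.99, 5.78 and 6.12 in the wild-type hearts. The groups did not overlap (measured difference 0.56, standard error 0.13, adjusted p = 0.368), and all wild-type hearts lay below the background level, so the difference is given as at least 0.17, or at least 1.13-fold. A second Top2a probe read between 3.02 and 3.93 in the 6 hearts and differed by -0.18. The mean of the 2 probes differed by 0.19.

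Sgo1, shugoshin, which protects centromeric cohesion, read 6.24, 6.19 and 6.13 in the knockout hearts, against 5.80, 5.94 and 5.68 in the wild-type hearts (adjusted p = 0.391). Its groups did not overlap, and all 6 values lay below the background level. The condensin genes did not move together. Smc2 read 6.89, 6.82 and 6.79 in the knockout hearts, against 6.61, 6.79 and 6.53 in the wild-type hearts, a difference of 0.19 without overlap, by a margin smaller than the rounding for 1 pair of hearts (adjusted p = 0.568). Ncapd2 read 7.61, 8.06 and 8.16 in the knockout hearts, against 8.39, 8.30 and 8.06 in the wild-type hearts, a difference of -0.31 (interval -0.68 to 0.07, adjusted p = 0.562). Knockout replicate 1 was the lowest of the 6, and without it the Ncapd2 difference was -0.14. Smc4 differed by -0.14 and Espl1, the protease separase, by 0.02, while Ncapg lay below the background level in all hearts.

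In the inner kinetochore 3 of 13 genes were higher (47.9% of all probes were) and 10 lower, and 0 passed the adjusted threshold. Cenpa, the centromeric histone, stood apart from the rest of that layer. It read 10.33, 10.29 and 10.29 in the knockout hearts, against 9.84, 9.72 and 10.20 in the wild-type hearts, with groups that did not overlap. The difference was 0.39, or 1.31-fold, with a standard error of 0.13 (unadjusted p = 0.0190, adjusted p = 0.455). The knockout hearts lay within 0.04 of each other, and wild-type replicate 3 was again the nearest wild-type heart. Cenpb, which binds a sequence of centromeric satellite DNA, read 9.11, 8.93 and 9.0 in the knockout hearts, against 9.11, 9.06 and 9.14 in the wild-type hearts (difference -0.09, interval -0.31 to 0.13). Cenpo read 7.02, 6.88 and 6.70 in the knockout hearts, against 7.03, 7.22 and 6.99 in the wild-type hearts (difference -0.21, interval -0.48 to 0.06, adjusted p = 0.575). Cenpc1, the link between centromeric chromatin and the outer kinetochore, differed by -0.18 (interval -0.46 to 0.10), and Cenpm, Cenpn, Cenpq and Cenpt by 0.12, 0.00, -0.09 and -0.09. Cenpl read 5.56, 5.31 and 5.62 in the knockout hearts, against 5.74, 5.55 and 5.74 in the wild-type hearts, below the background level in all 6, as did Cenph, Cenpi, Cenpk and Cenpp.

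The outer kinetochore and the checkpoint showed no gene at an unadjusted p under 0.05 (limma, 0 of 5 and 0 of 9, against 9.9% of all probes). Mis12 and Spc24, subunits of the complexes that carry microtubule binding, lay above the background level in all hearts and differed by -0.12 (interval -0.38 to 0.14) and 0.08 (interval -0.20 to 0.37). Ndc80, the microtubule-binding subunit itself, differed by 0.15, with 1 of the 6 hearts above the background level, and Nuf2 likewise had 1 such heart. Spc25 read 5.94, 6.0 and 6.03 in the knockout hearts, against 5.55, 6.09 and 5.34 in the wild-type hearts (adjusted p = 0.568). Knl1, the scaffold that recruits checkpoint proteins and the gene listed as Casc5, read 6.6, 6.56 and 6.56 in the knockout hearts, against 6.66, 6.98 and 6.65 in the wild-type hearts. Every knockout value was lower, with a difference of -0.19 (interval -0.45 to 0.07, adjusted p = 0.608).

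Bub3, a checkpoint protein that brings BUB1 and BUBR1 to kinetochores, read 9.61, 9.59 and 9.56 in the knockout hearts, against 9.83, 9.86 and 9.64 in the wild-type hearts. Of the 52 genes it alone was lower without overlap, by a difference of -0.19 (interval -0.42 to 0.04, adjusted p = 0.561). Mad2l1, which encodes the checkpoint protein MAD2, read 8.67, 8.38 and 8.59 in the knockout hearts, against 8.46, 8.78 and 8.46 in the wild-type hearts. The groups overlapped, with a difference of -0.02 (interval -0.32 to 0.27). Mad1l1, the binding partner of MAD2 at kinetochores, differed by 0.12 (interval -0.15 to 0.39) and Zw10 by -0.02 (interval -0.24 to 0.21). Cenpe, a kinesin that moves chromosomes to the spindle equator, read 5.83, 5.52 and 5.79 in the knockout hearts, against 5.84, 5.15 and 5.29 in the wild-type hearts, all below the background level (adjusted p = 0.625).

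The chromosomal passenger complex corrects faulty attachments through its kinase Aurora B. Aurkb read 7.35, 7.62 and 7.37 in the knockout hearts, against 7.40, 7.49 and 7.60 in the wild-type hearts, a difference of -0.05 (interval -0.31 to 0.21, adjusted p = 0.907). Incenp, its scaffold, differed by 0.05 (interval -0.38 to 0.49), with wild-type replicate 3 the highest of the 6 hearts. Birc5, which encodes survivin, lay below the background level in all hearts.

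**Figure D3:**
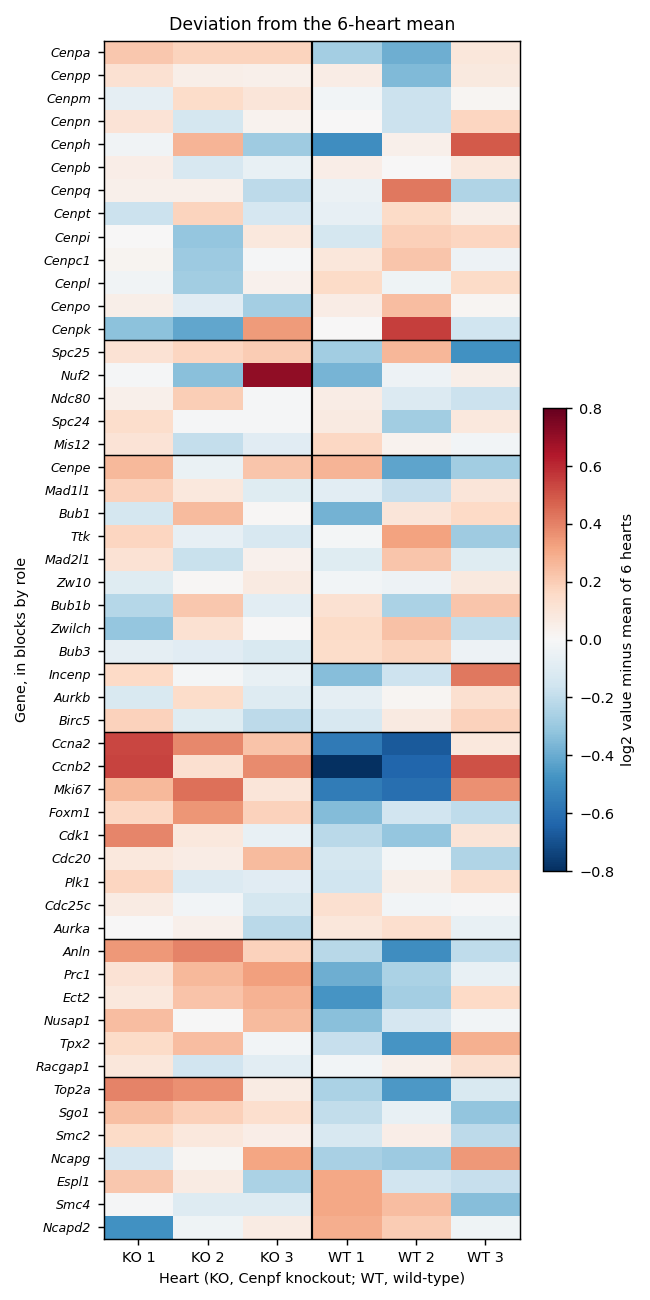
Deviation of each gene in each heart from its mean over the 6 hearts (colour, log2), with genes in blocks by role and the knockout hearts left of the wild-type hearts. In the blocks of regulators and of spindle and cytokinesis genes, wild-type replicates 1 and 2 are low and wild-type replicate 3 lies near the knockout hearts for Ccna2, Ccnb2, Mki67 and Tpx2.

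The wild-type hearts were not alike in these genes. Over the 9 regulators the mean deviation from the 6-heart mean was 0.246, 0.152 and 0.069 in knockout replicates 1, 2 and 3, against -0.299, -0.246 and 0.077 in wild-type replicates 1, 2 and 3. Over the 6 spindle and cytokinesis genes it was 0.174, 0.161 and 0.156 in the knockout hearts, against -0.271, -0.265 and 0.045 in the wild-type hearts. In both roles wild-type replicate 3 lay well above the other 2 wild-type hearts. It lay above both of them for 29 of the 52 genes (55.8%, against 34.2% of all probes), and nearer the knockout mean than their mean for 36 (69.2%, against 59.6% of all probes).

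Without wild-type replicate 3, 3 of the 52 genes passed the adjusted threshold (5.77%, against 1.34% of all probes), and all 3 were higher in the knockout hearts, as were 0.776% of all probes. These were Ccna2 with 1.0 (adjusted p = 0.0212), Ccnb2 with 1.12 (adjusted p = 0.0300) and Mki67 with a measured 0.84 (adjusted p = 0.0367). Of the remaining 2 wild-type hearts 1 lay above the background level for Ccna2 and 0 for Mki67, so the Mki67 difference is given as at least 0.75. The number of genes higher was then 32 of 52 and the median difference 0.119. Without any other single heart 0 of the 52 passed (limma), where 0.00459% to 0.0275% of all probes did. With knockout replicates 1, 2 and 3 left out that share was 0.0275%, 0.0138% and 0.00918%. With either of the other wild-type hearts left out it was 0.00459%. Of the 52 genes 7 to 10 had an unadjusted p under 0.05 (limma), and the share of all probes at that p is not given. In these fits the adjusted p reached 0.788 for Ccna2, 0.861 for Ccnb2 and 0.866 for Mki67. The labels give no reason to set this heart aside, and its Cenpf value of 8.04, the lowest of the wild-type hearts, was 1.66 above the knockout mean.

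**Figure D4:**
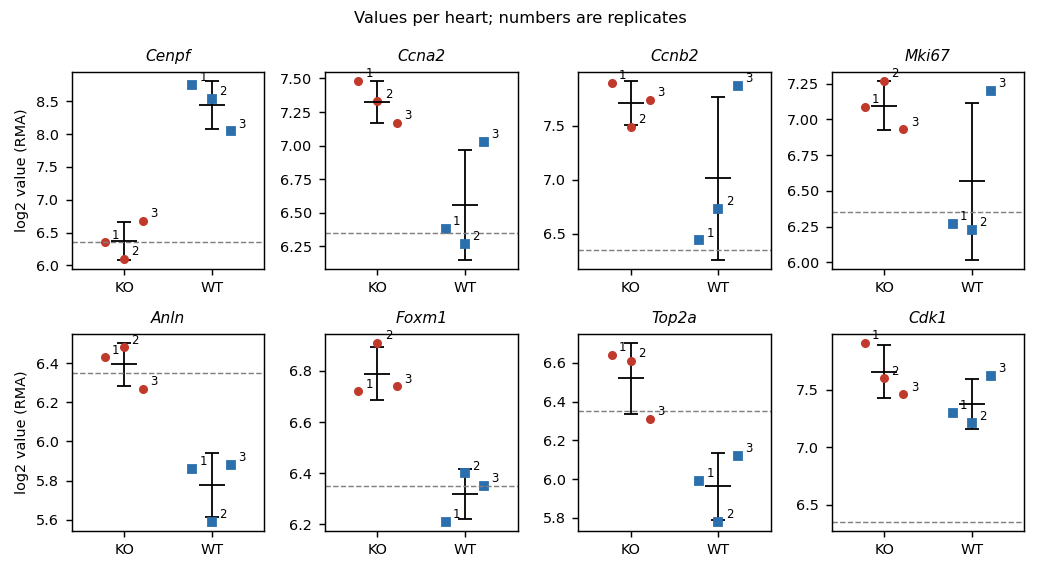
Values of Cenpf and 7 mitosis genes in each heart (y axis, log2 RMA value, a separate scale in each panel), with the knockout hearts on the left. Numbers beside the points are replicates, bars are the group mean and SD (n = 3), and the dashed line is the background level. Cenpf is high in all 3 wild-type hearts, while wild-type replicate 3 reaches the knockout range for Ccnb2, Mki67 and Cdk1.

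Promoters of genes transcribed late in the cell cycle are known to carry a short element called the CHR, which the DREAM and MuvB complexes bind, often beside CCAAT boxes bound by NF-Y. Windows of 300 bases, 250 before and 50 after each transcript start, were taken from RefSeq (GRCm38.p6). They held 43 of the 52 genes, with no window for Spc24, Zwilch, Incenp, Aurkb, Ccna2, Cdc25c, Tpx2, Foxm1 and Smc4. The CHR was searched as TTTGAA and TTCGAA and the NF-Y box as CCAAT, on both strands. Wild-type replicates 1 and 2 were the lowest hearts for Ccnb2, Mki67, Top2a and Cenpa, and Mad2l1 differed by -0.02. The same wild-type hearts were also the lowest for other genes. Among those, the window of Nusap1 holds neither motif and that of Anln no CCAAT box. The windows of Ccnb2, Mki67, Top2a, Cenpa and Mad2l1 are shown as examples and do not stand for the list. Each runs 5′ to 3′ on the strand of its gene, with CHR and CCAAT matches of either strand in capitals.
Ccnb2, chr9:70421505-70421804, minus strand: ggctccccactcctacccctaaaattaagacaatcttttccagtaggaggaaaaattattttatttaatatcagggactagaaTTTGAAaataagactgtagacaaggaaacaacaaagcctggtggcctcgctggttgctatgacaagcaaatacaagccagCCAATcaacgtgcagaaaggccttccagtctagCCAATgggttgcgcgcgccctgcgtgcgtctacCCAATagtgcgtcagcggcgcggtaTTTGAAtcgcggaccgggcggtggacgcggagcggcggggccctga
Mki67, chr7:135716330-135716629, minus strand: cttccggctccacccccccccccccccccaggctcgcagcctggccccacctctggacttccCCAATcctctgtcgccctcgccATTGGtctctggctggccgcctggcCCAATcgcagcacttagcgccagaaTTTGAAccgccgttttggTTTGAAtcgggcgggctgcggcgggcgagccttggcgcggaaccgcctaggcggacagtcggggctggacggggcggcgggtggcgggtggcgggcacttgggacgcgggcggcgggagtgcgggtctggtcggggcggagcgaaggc
Top2a, chr11:99024140-99024439, minus strand: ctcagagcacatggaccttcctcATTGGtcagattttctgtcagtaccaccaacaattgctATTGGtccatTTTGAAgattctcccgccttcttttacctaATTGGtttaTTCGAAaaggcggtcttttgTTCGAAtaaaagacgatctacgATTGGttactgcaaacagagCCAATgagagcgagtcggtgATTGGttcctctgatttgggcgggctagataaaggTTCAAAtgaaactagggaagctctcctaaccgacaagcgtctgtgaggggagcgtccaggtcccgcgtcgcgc
Cenpa, chr5:30666636-30666935, plus strand: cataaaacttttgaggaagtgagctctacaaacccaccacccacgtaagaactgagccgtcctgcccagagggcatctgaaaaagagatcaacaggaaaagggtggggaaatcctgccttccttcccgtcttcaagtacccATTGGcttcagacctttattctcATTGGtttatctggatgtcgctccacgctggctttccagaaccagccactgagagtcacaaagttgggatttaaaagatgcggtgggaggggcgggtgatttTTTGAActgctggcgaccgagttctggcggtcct
Mad2l1, chr6:66534971-66535270, plus strand: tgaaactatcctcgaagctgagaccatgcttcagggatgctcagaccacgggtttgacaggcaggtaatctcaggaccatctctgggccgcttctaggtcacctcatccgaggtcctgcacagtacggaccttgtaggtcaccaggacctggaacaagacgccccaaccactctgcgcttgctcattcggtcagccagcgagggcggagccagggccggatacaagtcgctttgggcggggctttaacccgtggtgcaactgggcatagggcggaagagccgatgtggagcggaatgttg

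The Ccnb2 window holds 2 CHR matches and 3 CCAAT boxes, the Mki67 window 2 and 3, the Top2a window 4 and 6, and the Cenpa window 1 and 2, while the Mad2l1 window holds none of either. Of the 49 windows of the listed genes, 61.2% held a CHR, against 19.2% of all 32851 windows searched, and 73.5% held a CCAAT box, against 37.4%. Both stood in 55.1% of the listed genes' windows, against 7.52% of all. The E2F motifs TTTCCCGC and TTTGGCGC stood in 10.2% of windows, against 1.56% of all. In no window did matches of different motifs share bases. A match is a run of letters and not a measured binding site.

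The 24 genes with both a CHR and a CCAAT box in a window had a median difference of 0.13 between knockout and wild-type hearts, 15 of them higher and 6 at an unadjusted p under 0.05 (47.9% and 9.9% of all probes). The 10 genes with only 1 of the motifs had a median of -0.06, with 3 higher and 1 at that p, and the 9 with neither a median of -0.02, with 4 higher and 1 at that p. The ranges overlapped, -0.31 to 0.70 with both motifs, -0.27 to 0.62 with 1 and -0.21 to 0.33 with neither. Bub3 and Ncapd2, both lower in the knockout hearts, hold both motifs, and Anln holds no CCAAT box. Plk1, Ttk and Espl1, with differences of -0.02, -0.01 and 0.02, hold both motifs too. This division was made after the values were known and was not tested.

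**Figure D5:**
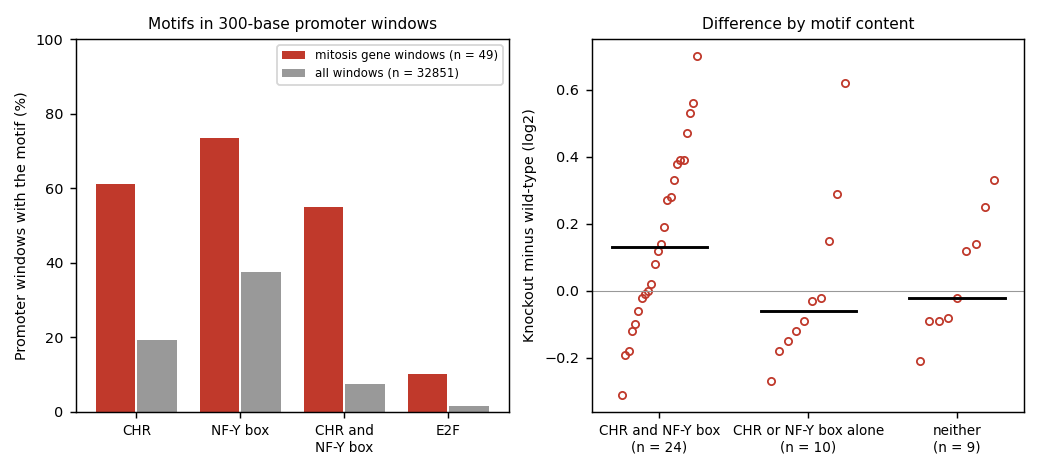
Left, share of 300-base promoter windows with each motif (y axis, percent) for the windows of the mitosis genes and for all windows searched. Right, difference between knockout and wild-type hearts (y axis, log2) of the 43 genes with a window, by motif content, with bars at the medians of 0.13, -0.06 and -0.02.

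Beyond these genes, 102 of 104 further genes of mitosis, the anaphase-promoting complex and cohesin had a probe, and 0 of the 102 passed the adjusted threshold (limma). At an unadjusted p under 0.05 there were 14 (13.7%, against 9.9% of all probes), 8 higher and 6 lower in the knockout hearts. The groups did not overlap for 8 that were higher (7.84%, against 7.33% of all probes) and 11 that were lower (10.8%, against 7.47%). Their median difference was 0.005, and 54 of 102 were higher. Kif11, the kinesin that pushes spindle poles apart, read 6.98, 6.80 and 6.76 in the knockout hearts, against 6.18, 6.48 and 6.63 in the wild-type hearts, without overlap (difference 0.41, adjusted p = 0.441). Cdca5, the cohesin protector sororin, read 6.98, 6.69 and 6.39 in the knockout hearts, against 5.90, 5.90 and 6.48 in the wild-type hearts (difference 0.60, adjusted p = 0.454). Wild-type replicate 3 was again the highest wild-type heart for both. Wild-type replicate 1 lay below the background level for both and wild-type replicate 2 for Cdca5, so these are measured differences without a fold.

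Arhgap11a, a regulator of RhoA, read 6.61, 6.76 and 6.29 in the knockout hearts, against 5.46, 5.95 and 6.17 in the wild-type hearts (adjusted p = 0.391). Anapc13, a subunit of the anaphase-promoting complex, went the other way. It read 10.85, 10.84 and 10.91 in the knockout hearts, against 11.34, 11.32 and 11.10 in the wild-type hearts, without overlap (difference -0.39, standard error 0.10, adjusted p = 0.383). Bora, an activator of Aurora A, read 5.99, 5.51 and 5.66 in the knockout hearts, against 6.14, 6.23 and 6.30 in the wild-type hearts, below the background level throughout (adjusted p = 0.387).

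In RNA of the heart as a tissue, more dividing cells and more RNA per dividing cell cannot be told apart, and levels of cell type markers are therefore given beside the values above. Of the listed erythroid genes 6 of 10 had a probe, 3 above the background level in all hearts and Rhag in none. Their mean log2 value ranged over 7.59 to 7.68 in the knockout hearts and 7.47 to 7.66 in the wild-type hearts, and 4 of 6 were higher. All 6 missed the adjusted threshold with all hearts (limma). At an unadjusted p under 0.05 there were 4 (66.7%, against 9.9% of all probes), 3 higher and 1 lower. Without wild-type replicate 3, 3 passed (50.0%, against 1.34% of all probes), 2 higher and 1, Tfrc, given below, lower. Among them Alas2, an enzyme of haem synthesis, read 10.55, 10.24 and 10.22 in the knockout hearts, against 9.02, 9.42 and 9.94 in the wild-type hearts, without overlap (difference 0.88, adjusted p = 0.368). Wild-type replicate 3 was the nearest wild-type heart here too. All 10 macrophage and monocyte markers lay above the background level, with means of 9.69, 8.97 and 9.12 in the knockout hearts, against 9.10, 9.38 and 9.52 in the wild-type hearts. Of the 10, 4 were higher and 6 lower, with differences from -0.79 for Cd14 to 0.26 for Cd68. Only Cd14 had an unadjusted p under 0.05 (limma, 10%, against 9.9% of all probes). Knockout replicate 1 was the highest of the 6 hearts for these markers, as it was for the mean of the 9 regulators, and wild-type replicate 3 was the highest wild-type heart for both, while knockout replicate 2 was the lowest of the 6 for these markers and the second highest for the regulators. Cd14, a co-receptor for bacterial lipopolysaccharide, read 7.51, 7.30 and 7.19 in the knockout hearts, against 8.13, 8.11 and 8.14 in the wild-type hearts, without overlap (difference -0.79, adjusted p = 0.110, and 0.0403 without wild-type replicate 3).

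Endothelial markers averaged 10.57, 10.49 and 10.45 in the knockout hearts, against 10.42, 10.39 and 10.44 in the wild-type hearts, with 7 of 10 higher (47.9% of all probes were) and 4 of 10 higher without overlap (7.33% of all probes). Among them Kdr, a receptor for VEGF, read 10.34, 10.45 and 10.40 in the knockout hearts, against 9.94, 9.78 and 10.17 in the wild-type hearts (difference 0.43, adjusted p = 0.391). Emcn, another of the 10, differed by -0.27 (limma, adjusted p = 0.514). Fibroblast markers averaged 10.74, 10.08 and 10.21 in the knockout hearts, against 10.57, 10.73 and 10.20 in the wild-type hearts, with 10 of 10 lower by the difference of means. Of 8 lymphocyte markers 3 lay above the background level in all hearts and Cd3d and Cd79a in none, and their mean ranged over 6.43 to 6.69 in the knockout hearts and 6.49 to 6.59 in the wild-type hearts. Smooth muscle and pericyte markers, 9 of 10 above the background level in all hearts, averaged 9.26, 9.24 and 9.32 in the knockout hearts, against 9.55, 9.42 and 9.16 in the wild-type hearts, with 5 of 10 higher. Acta2, smooth muscle actin, read 11.07, 10.66 and 11.20 in the knockout hearts, against 12.96, 12.76 and 11.07 in the wild-type hearts (difference -1.28, adjusted p = 0.455, and 0.00699 without wild-type replicate 3). Wild-type replicate 3 lay within the knockout range and the other wild-type hearts above it. Myh11, smooth muscle myosin, and Notch3, a receptor of mural cells, were higher without overlap, each by 0.32 (adjusted p = 0.455 and 0.431).

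No marker of these 6 lists passed the adjusted threshold with all hearts (limma, 0 of 54, with 9 or 16.7% at an unadjusted p under 0.05, against 9.9% of all probes). Without wild-type replicate 3, 5 of the 54 passed, against 1.34% of all probes. The part of these cell types in the differences of the mitosis genes was not tested.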

How the data were processed

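The authors deposited log2 values of 35556 probes for 6 arrays, made with RMA (background correction, normalization between arrays, probe summary) and Partek 6.6, per the submitters' processing notes. Neither settings nor a build are stated. Array medians lay between 6.92 and 6.97, so no further normalization was applied. Depth has no meaning for arrays as it has for reads; the number of hearts limits the precision.

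Probes were named from the platform annotation: 21789 have 1 symbol, 1621 several, and 12146 were unnamed here. Of each listed gene's 20 nearest named probes in probe order, at least 17 lay on its chromosome. In the wider mitosis list at most 1 did for Depdc1a, Ube2s, Cks2, Kpna2 and Hmgb2. These 5 were kept among the 102 genes. Tests used limma 3.58.1 under R 4.3.3 (lmFit, eBayes, two-sided, Benjamini-Hochberg over 21789 probes). Intervals are 95% intervals of that fit. It was also run on simulated data with noise independent between hearts and genes. Those data held no heart departing over many genes, so that run says nothing on wild-type replicate 3.

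Values per heart were given for the 20 listed genes with the smallest p, for Mki67, Top2a, Cdk1 and Aurkb, for the 5 of highest mean and for 5 further mitosis genes with the smallest p, besides Cenpf. Knl1, Alas2, Tfrc, Cd14, Cd68, Kdr, Emcn, Acta2, Myh11, Notch3, Car3, Adipoq, the marker means and the second Top2a probe were added after their values were seen. The members and lists were chosen with earlier results of these data known. Hearts were not paired by replicate number in the main fit. Deviations of same-numbered hearts correlated at -0.186, -0.251 and -0.0094, and those of other pairs at -0.0621 to 0.232. With so few hearts these values cannot show whether hearts were paired. The scan files' names share 1 date, and no batch is given. Figures were drawn with matplotlib 3.10.9.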

Additional observations from a re-analysis of the deposited data

How the results depend on the processing

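Alternatives were 3 other normalizations, 2 filters on dim probes, averaging the probes of a gene, all 35556 probes as the tested family, array weights, a robust variance model with a trend, the replicate block, each heart left out in turn and, chosen after seeing the data, Knl1 counted as a listed gene. In none but the fit without wild-type replicate 3 did any of the 52 genes pass, so the count ranged over 0 to 3 when 1 heart was left out. The median difference of the 52 genes then ranged over -0.008 to 0.119 and the number higher over 25 to 32, so the direction of the median is not settled. Of probes with a mean above background 15 of 31 were higher, and of those above it in at least 3 arrays 16 of 33, where fewer genes are tested by construction. With the replicate block 0 of the 52 genes passed, the median difference was 0.038, Cenpf stayed called (adjusted p = 0.0423) and 11 of all probes were called, against 6 without it. Knl1 left 0 called and 27 of 53 higher.

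For the wider mitosis list the median difference was 0.027 with array medians subtracted, 0.036 with quantile and 0.032 with cyclic loess normalization, 0.035 with array weights and -0.029 to 0.043 with 1 heart left out, and 29 of 63 and 30 of 64 were higher under the filters. Cenpf differed by -2.07 over all probes of the table without passing (adjusted p = 0.281), and by -2.27 to -1.92 with 1 heart left out. Over all probes the number called was 1 with every probe of the table, 22 with the trend model, 33 with array weights and 1 to 293 with 1 heart left out. Mad2l1 ranged over -0.09 to 0.08 and Aurkb over -0.13 to 0.00 with 1 heart left out, so neither has a settled direction. The number of genes above background was 14 at the 99th percentile and 52 at the median of the silent probes. The cause of these movements was not tested.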

Other observations

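The transferrin receptor gene Tfrc, one of the listed erythroid genes, read 9.10, 9.93 and 9.89 in the knockout hearts, against 11.28, 11.30 and 9.70 in the wild-type hearts (difference -1.12, adjusted p = 0.472). Here too wild-type replicate 3 lay within the knockout range, on the low side this time. Adipocyte markers, 9 of 10 with a probe and 9 of 9 lower in the knockout hearts, averaged 7.23, 7.13 and 7.11 in the knockout hearts, against 8.10, 7.65 and 7.32 in the wild-type hearts, where wild-type replicate 3 was the nearest to the knockout hearts. None of the adipocyte genes passed the adjusted threshold with all hearts (limma, 0 of 9, with 3 or 33.3% at an unadjusted p under 0.05, against 9.9% of all probes). Without wild-type replicate 3, 2 of 9 passed (22.2%, against 1.34% of all probes), Car3 (adjusted p = 0.0232) and Adipoq (adjusted p = 0.0388).

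The spread between hearts was larger in the wild-type group than in the knockout group for 32 of the 52 mitosis genes (61.5%, against 52.7% of all probes). Ccnb2 had an SD of 0.21 in knockout hearts and 0.76 in wild-type hearts (n = 3 each), and Cenpa one of 0.02 in knockout hearts and 0.25 in wild-type hearts. The difference in spread was not tested.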
